A study of Mus musculus with 71 samples.

Results

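The Id genes (Id1, Id2, Id3 and Id4) were measured in differentiated murine adipocytes treated with rosiglitazone (RSG), an agonist of the nuclear receptor PPARγ, or with the vehicle dimethyl sulfoxide (DMSO). The members were the 4 genes of this family of 12393 genes on the array, and every probe set annotated to 1 of them alone was taken, which gave 8 of 22626 probe sets. The family was chosen by its signals at 1 and 2 hrs, where Id3 was higher and Id4 lower with RSG, so the contrasts at 1 and 2 hrs are given below as a description with no test. The arrays of the later harvests (4, 7, 24 and 48 hrs) took no part in that choice and were tested. In the mouse genome (RefSeq, GRCm38.p6) Id1 lies at chr2:152736251-152737410, Id2 at chr12:25093799-25096092, Id3 at chr4:136143822-136145392 and Id4 at chr13:48261116-48266028. Id1 and Id3 had a single probe set each, and Id2 and Id4 had 3 each.

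Id proteins are helix-loop-helix proteins without the basic region that contacts DNA. They dimerize with the E proteins (Tcf3, Tcf4 and Tcf12), which are basic helix-loop-helix (bHLH) transcription factors, and the dimers cannot bind the E-box, the DNA motif through which E proteins and their tissue-specific partners act. The genes are known for fast responses to growth factors and to bone morphogenetic proteins (BMPs), and for high levels in dividing precursors. In the fat lineage, Id proteins are known from mouse cells to influence the conversion of preadipocytes to adipocytes.

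Both cell lines are mouse embryo lines, 3T3-L1 being committed preadipocytes and C3H/10T1/2 being less restricted mesenchymal cells. RSG was also part of the differentiation medium of both lines, so the DMSO cells had seen it too, and all cells then spent 24 hrs in a serum-free wash-out medium before treatment. In each line RSG (1 µM) and DMSO groups were harvested after 1 and 2 hrs, then 4 and 7 hrs, then 24 and 48 hrs, with 3 replicates grown from different batches of cells, and only the DMSO group of 3T3-L1 at 2 hrs had 2 arrays. Each sample pooled wells of cells, and the differentiation protocols differed between the lines, so line and protocol cannot be told apart.

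The 71 arrays gave median signals of 50.2 to 64.2 where they came from 3T3-L1 adipocytes and of 38.2 to 46.9 where they came from C3H/10T1/2 adipocytes, on the linear scale to which the authors scaled every array. The presence level was a signal of 19.9, above which only 5% of the values of 27 bacterial controls lay, which should find no partner in mouse RNA. Of 9 adipocyte markers, 8 were present on every array of both lines and leptin (Lep) on none. Markers of preadipocytes and fibroblasts were also present, 10 of 10 on every array of 3T3-L1 and 9 of 10 in C3H/10T1/2. In bulk RNA, fewer cells of a type and less RNA per cell cannot be told apart.

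The stretches of 250 bases before the starts of Id3 and Id4 are shown because these genes moved in opposite directions in 3T3-L1 adipocytes (RefSeq, GRCm38.p6). Capitals mark matches on either strand to 6 motifs: AGGTCA, the hexamer of nuclear receptors, and its direct repeat with a spacer of 1 base, the PPAR response element; CANNTG, the E-box; GGCGCC and CAGAC, elements bound by Smads; and TGACG, the core of the cAMP response element.
Id3 (chr4:136143572-136143821, plus strand): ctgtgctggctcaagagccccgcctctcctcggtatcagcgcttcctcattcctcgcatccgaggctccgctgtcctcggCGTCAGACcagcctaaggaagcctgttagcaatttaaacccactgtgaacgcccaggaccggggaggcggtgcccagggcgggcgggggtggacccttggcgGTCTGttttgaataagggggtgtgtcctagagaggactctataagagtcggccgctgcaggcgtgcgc
Id4 (chr13:48260866-48261115, plus strand): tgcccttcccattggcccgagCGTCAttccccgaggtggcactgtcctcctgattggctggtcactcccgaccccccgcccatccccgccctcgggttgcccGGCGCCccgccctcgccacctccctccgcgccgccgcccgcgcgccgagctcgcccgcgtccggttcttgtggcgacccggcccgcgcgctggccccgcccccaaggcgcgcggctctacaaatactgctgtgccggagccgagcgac
The Id3 stretch held CAGAC in 2 places and TGACG in 1 place, which overlaps a CAGAC match. The Id4 stretch held GGCGCC once and TGACG once. Neither held AGGTCA or CANNTG. Among 32851 promoter stretches of the same length, 42.2% held CAGAC, 17.8% TGACG, 9.59% GGCGCC, 14% AGGTCA, 66.2% CANNTG and 0.0335% the direct repeat. The promoter table also had Id2 (chromosome 12), and 3 of the 4 members in all.

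Id3 was higher with RSG at every time in 3T3-L1 adipocytes. At 1 hr its signals were 213.2, 192.4 and 175.9 with RSG, against 92.7, 98.5 and 91.7 with DMSO (log2 difference 1.04, SE 0.20). At 2 hrs they were 137.8, 165.3 and 190.4 with RSG, against 54.5 and 55.6 with DMSO (1.57, SE 0.22), which was the widest gap of the 6 times. Every RSG array thus lay above every DMSO array at 1 and 2 hrs, the times by which the family was chosen.

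The later harvests showed the same order in 3T3-L1 adipocytes. At 4 hrs the Id3 signals were 103.3, 116.7 and 107.0 with RSG, against 64.2, 47.9 and 32.2 with DMSO, a 2.35-fold difference (log2 1.23, SE 0.20, limma adjusted p = 0.000478). At 7 hrs they were 105.6, 102.6 and 137.2 with RSG, against 77.5, 72.7 and 59.0 with DMSO (1.65-fold, log2 0.72, SE 0.20, adjusted p = 0.0488). This was the smallest of the differences, and the call at 7 hrs was lost when any 1 of the 6 arrays was left out, with log2 differences of 0.59 to 0.80 and adjusted p of 0.0659 to 0.244. At 24 hrs Id3 had 163.2, 153.4 and 148.2 with RSG, against 76.9, 69.6 and 61.0 with DMSO (2.25-fold, log2 1.17, SE 0.20, adjusted p = 9.84e-05). At 48 hrs it had 194.3, 175.4 and 150.1 with RSG, against 110.5, 69.9 and 72.8 with DMSO (2.09-fold, log2 1.06, SE 0.20, adjusted p = 0.000246). RSG and DMSO arrays did not overlap at any of the 6 times. Over all 18028 probe sets tested in 3T3-L1 adipocytes, all RSG arrays lay above all DMSO arrays for 4.54% at 1 hr and 10.5% at 2 hrs, for 5.81% and 7.39% at 4 and 7 hrs, and for 12.6% and 10.8% at 24 and 48 hrs.

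Id3 was also higher with RSG on every array of each time in C3H/10T1/2 adipocytes, with log2 differences that were smaller at all 6 times. At 1 hr its signals were 152.0, 127.6 and 108.8 with RSG, against 80.5, 68.3 and 74.3 with DMSO (log2 0.79, SE 0.22). At 2 hrs they were 132.1, 117.0 and 88.2 with RSG, against 46.6, 57.1 and 42.0 with DMSO (1.2, SE 0.22). The gap was widest at 2 hrs in this line as well. At 4 hrs Id3 had 120.5, 77.5 and 96.4 with RSG, against 69.8, 69.4 and 55.4 with DMSO (log2 0.58, SE 0.22, adjusted p = 0.325). At 7 hrs it had 110.5, 85.6 and 89.5 with RSG, against 77.9, 58.9 and 60.8 with DMSO (0.53, SE 0.22, adjusted p = 0.215). Neither passed in the main fit, which did not use the replicate numbers. At 24 hrs the signals were 128.8, 97.7 and 85.5 with RSG, against 83.7, 59.6 and 48.3 with DMSO (1.65-fold, 0.72, SE 0.22, adjusted p = 0.0362). At 48 hrs they were 100.4, 71.1 and 73.6 with RSG, against 71, 46.3 and 45.3 with DMSO (0.61, SE 0.22, adjusted p = 0.105).

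Replicate numbers paired the C3H/10T1/2 arrays, and the first replicate gave the highest Id3 signal of both treatments at 24 and 48 hrs. In a fit blocked on the replicate number, Id3 passed at 4 hrs (adjusted p = 0.0354), 7 hrs (0.0253) and 48 hrs (0.00623) too. The call at 24 hrs was lost without RSG replicate 1 (adjusted p = 0.200), RSG replicate 2 (0.0661), DMSO replicate 2 (0.107) or DMSO replicate 3 (0.214), while that at 48 hrs was gained without DMSO replicate 1 (0.0390). Among 16123 probe sets tested in this line, all RSG arrays lay above all DMSO arrays for 3.33% at 1 hr, 4.57% at 2 hrs, 5.2% and 7.33% at 4 and 7 hrs, and 8.99% and 8.75% at 24 and 48 hrs.

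**Figure D1:**
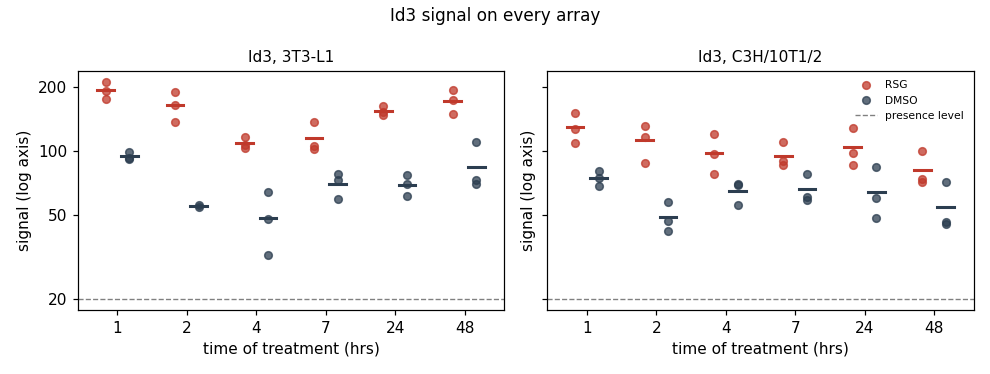
Id3 signal of each array (points, logarithmic axis) and group mean (bars) by time, with RSG left of DMSO, in 3T3-L1 (left) and C3H/10T1/2 adipocytes (right); the dashed line is the presence level of 19.9. The RSG arrays lie above the DMSO arrays at every time in both lines; over all times they span 102.6 to 213.2 with RSG and 32.2 to 110.5 with DMSO in 3T3-L1.

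Id4, which was lower with RSG at some of the times in 3T3-L1 adipocytes, had 3 probe sets designed from the same transcript sequence, so they are not independent measurements. Over the 35 arrays of 3T3-L1 adipocytes the 2 brighter ones, called the leading and the second probe set here, correlated with r = 0.892 on the log2 scale, and the dimmest one correlated with them at 0.666 and 0.662. Over the 36 arrays of C3H/10T1/2 adipocytes the correlations were 0.707, 0.451 and 0.562.

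In 3T3-L1 adipocytes the 2 brighter Id4 probe sets were lowest with RSG at 2 hrs. On the leading probe set the signals at 1 hr were 81.0, 135.6 and 71.1 with RSG, against 98.1, 108.2 and 128.8 with DMSO (log2 difference -0.27, SE 0.25), and the groups overlapped. On the second probe set they did not at 1 hr, with 37.4, 45.5 and 36.7 with RSG, against 51.8, 55.3 and 86.9 with DMSO (-0.67, SE 0.26). At 2 hrs the leading probe set had 59.0, 66.2 and 47.7 with RSG, against 208.2 and 143.1 with DMSO (-1.60, SE 0.28). The second probe set read 27.2, 27.8 and 22.5 with RSG, against 112.1 and 79.7 with DMSO at 2 hrs (-1.88, SE 0.29). The dimmest had 23.1, 20 and 32.8 with RSG, against 44.2 and 46.1 with DMSO at that time (-0.87, SE 0.35). No RSG array reached a DMSO array on any of the 3 probe sets at 2 hrs, a time at which all RSG arrays lay below both DMSO arrays for 8.84% of all probe sets. This share was 3.23% at 1 hr, 6.51% and 11% at 4 and 7 hrs, and 15.6% and 14.4% at 24 and 48 hrs.

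At 4 hrs and later the Id4 difference in 3T3-L1 adipocytes came and went. The leading probe set had 84.3, 136.5 and 119.6 with RSG, against 145.2, 219.3 and 174.6 with DMSO at 4 hrs (log2 -0.67, SE 0.25, adjusted p = 0.420). At 7 hrs it had 145.1, 167.5 and 115.2 with RSG, against 132.7, 118.0 and 123.2 with DMSO (0.18, SE 0.25, adjusted p = 0.882). The groups overlapped at 7 hrs on all 3 probe sets. At 24 hrs the signals were 157.6, 138.3 and 112.6 with RSG, against 261.7, 175.0 and 180.2 with DMSO (-0.58, SE 0.25, adjusted p = 0.142). At 48 hrs they were 77.6, 66.5 and 69.0 with RSG, against 120.5, 215.7 and 105.2 with DMSO, the fitted RSG level being 0.507 times the DMSO level (-0.98, SE 0.25, adjusted p = 0.00634). Thus Id4 fell at 48 hrs, where the RSG arrays lay close together and the DMSO arrays were spread wide. Without DMSO replicate 2, the highest of them, the difference at 48 hrs was -0.67 (adjusted p = 0.0800).

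The other Id4 probe sets passed at 48 hrs as well. The second had 36.4, 33.4 and 48.7 with RSG, against 57.3, 102.1 and 113.9 with DMSO (log2 -1.16, SE 0.26, adjusted p = 0.00166), and this call was kept with each array left out. The dimmest had 11.3, 25.5 and 29.7 with RSG, against 56.4, 35 and 34.0 with DMSO (-0.99, SE 0.31, adjusted p = 0.0304), a call lost without RSG replicate 1 (-0.56, adjusted p = 0.293) or DMSO replicate 1 (-0.75, adjusted p = 0.188). At 4 hrs the second probe set alone passed, with 51.1, 50.9 and 68.9 with RSG, against 94.6, 142.7 and 113.1 with DMSO (-1.03, SE 0.26). Its adjusted p of 0.04999 lay at the threshold and was 0.147 to 0.320 without RSG replicate 1 or 2 or DMSO replicate 2 or 3. The log2 difference of the second probe set was -0.24 at 7 hrs and -0.53 at 24 hrs, and that of the dimmest was -0.32 at 4 hrs, 0.27 at 7 hrs and -0.11 at 24 hrs, and none of these passed.

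Id4 was close to the presence level in C3H/10T1/2 adipocytes. The leading probe set reached 19.9 on 21 of 36 arrays, the second on 8 and the dimmest on 4, and the dimmest was not tested in this line. On the leading probe set the signals at 2 hrs were 32.1, 22.3 and 49.5 with RSG, against 24.6, 29.9 and 58.7 with DMSO, and the third replicate was the highest array of both treatments. RSG and DMSO arrays overlapped at every time before 48 hrs. At 48 hrs the signals were 22.6, 29.7 and 32.1 with RSG, against 15.3, 14.6 and 11.1 with DMSO. All of these DMSO arrays were under the presence level. The RSG mean on the log2 scale was 1.40-fold above that level, but the difference did not pass (fitted log2 1.04, SE 0.52, adjusted p = 0.318). The second probe set had 6.0, 8.6 and 5.6 with RSG, against 9.8, 6.9 and 9.1 with DMSO at 48 hrs, all under the presence level, and so did not show the difference of the leading one. No Id4 probe set passed the limma test in this line.

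**Figure D2:**
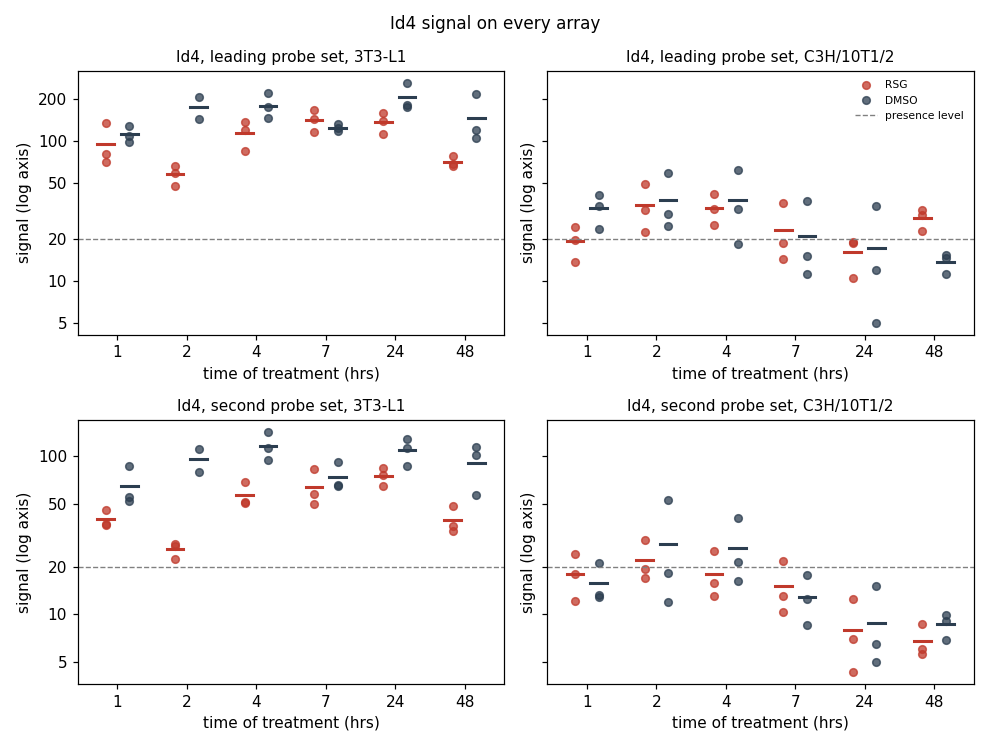
Id4 signal of each array (points, logarithmic axis) and group mean (bars) by time, with RSG left of DMSO, for the leading (top) and second probe set (bottom) in 3T3-L1 (left) and C3H/10T1/2 adipocytes (right); the dashed line is the presence level of 19.9. In 3T3-L1 the RSG arrays sit below the DMSO arrays at 2, 4, 24 and 48 hrs on both probe sets and overlap them at 7 hrs; in C3H/10T1/2 many arrays lie under the dashed line.

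Id1, best known as a target of BMP signaling, passed the test at the last time, 48 hrs, in 3T3-L1 adipocytes. Its signals at 1 hr were 434.7, 362.1 and 377.2 with RSG, against 344.6, 180.1 and 372.7 with DMSO (log2 0.45, SE 0.18), overlapping because 1 RSG array lay under the highest DMSO array. The log2 differences at 2, 4 and 7 hrs were 0.22, 0.11 and 0.19, with adjusted p of 0.998 at 4 hrs and 0.799 at 7 hrs. At 24 hrs Id1 had 276.6, 219.4 and 274.0 with RSG, against 334.7, 304.1 and 300.5 with DMSO (-0.29, SE 0.18, adjusted p = 0.367). At 48 hrs it had 278.9, 206.4 and 218.4 with RSG, against 420.1, 303.1 and 370.2 with DMSO (-0.64, SE 0.18, adjusted p = 0.0166). All RSG arrays lay below all DMSO arrays at 24 and 48 hrs, as they did for 15.6% and 14.4% of all probe sets in this line. By the limma test Id1 fell with RSG at 48 hrs. That call was lost without RSG replicate 2 (adjusted p = 0.0864), RSG replicate 3 (0.0618) or DMSO replicate 1 (0.102).

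The differences of Id1 between RSG and DMSO did not pass in limma at any time tested in C3H/10T1/2 adipocytes. At 24 hrs the signals were 195.8, 197.7 and 229.4 with RSG, against 277.9, 243.8 and 311.3 with DMSO (log2 -0.42, SE 0.19, adjusted p = 0.208). At 48 hrs they were 221.8, 223.8 and 192.8 with RSG, against 267.9, 252.8 and 235.6 with DMSO (-0.25, SE 0.19, adjusted p = 0.607). All RSG arrays lay below all DMSO arrays at both times, as they did for 14.6% and 10.5% of all probe sets in this line (3.36% at 1 hr, 5.27% at 2 hrs, 7.45% and 11.4% at 4 and 7 hrs). At 4 and 7 hrs they overlapped, with log2 differences of -0.08 and -0.08.

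**Figure D3:**
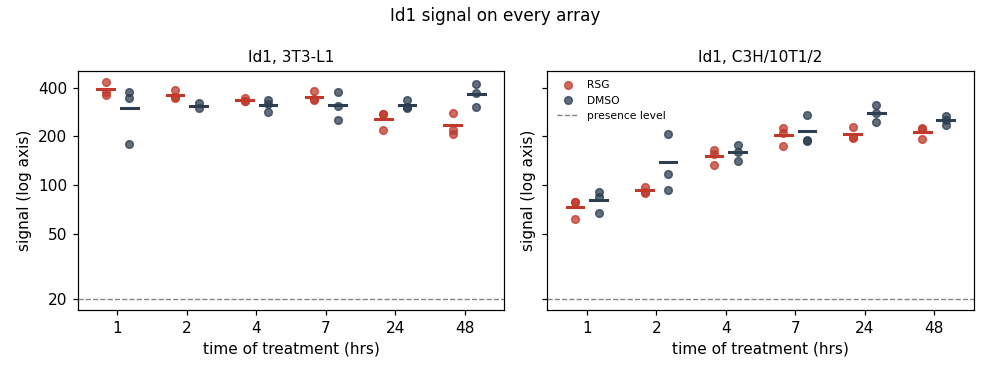
Id1 signal of each array (points, logarithmic axis) and group mean (bars) by time, with RSG left of DMSO, in 3T3-L1 (left) and C3H/10T1/2 adipocytes (right); the dashed line is the presence level of 19.9. In C3H/10T1/2 both treatments climb between 1 hr (61.9 to 90.6) and 24 hrs (195.8 to 311.3), and in 3T3-L1 RSG lies under DMSO at 24 and 48 hrs.

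Id2, a member known from mice to take part in fat cell formation, was not measurable with these probe sets. Its 3 probe sets had no group mean at the presence level in either line and were not tested. The brightest ranged between 1.6 and 23.6 in 3T3-L1 and between 1.0 and 20 in C3H/10T1/2 adipocytes, and reached 19.9 on 7 of 35 and 1 of 36 arrays. The other pair did so on no array. A low signal on these probe sets does not show that the transcript was absent.

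Of the 5 member probe sets tested in 3T3-L1 adipocytes, 1 was higher and 1 lower at 4 hrs, where 0.544% and 0.172% of all probe sets were (0.716% in either direction). At 7 hrs 1 was higher (1.22% of all) and 0 were lower (0.821%, and 2.04% in either direction). At 24 hrs again 1 was higher (4.79%) and 0 were lower (6.97%, and 11.8% in either direction), with 3 at an unadjusted p under 0.05. At 48 hrs 1 was higher (6.2%) and 4 were lower (8.09%, and 14.3% in either direction), 3 of these 4 being the probe sets of Id4. Of the 4 tested in C3H/10T1/2 adipocytes, 1 was higher at 24 hrs (3.65% of all) and 0 were lower (4.07%, and 7.72% in either direction). None passed there at 4 hrs (0.763% in either direction), 7 hrs (2.85%) or 48 hrs (5.41%), with 1 at an unadjusted p under 0.05 at each of these times, and the replicate block brought the calls over the 4 times to 4, all of Id3. The block raised the share of all probe sets called in either direction too, to 1.49% at 4 hrs, 6.01% at 7 hrs, 12.6% at 24 hrs and 9.43% at 48 hrs. Preadipocyte and fibroblast markers moved at the same late times. In 3T3-L1 adipocytes 4 of 10 were lower with RSG at 24 hrs and 7 of 10 at 48 hrs, when their summed signal was 17106 to 18697 with RSG and 24879 to 25304 with DMSO. The count in C3H/10T1/2 adipocytes was 5 of 10 at 24 and at 48 hrs, with sums at 48 hrs of 12895 to 14503 with RSG and 17126 to 17406 with DMSO. Of 8 adipocyte markers tested in each line, 2 were higher and 1 lower at 24 and at 48 hrs in 3T3-L1 adipocytes. In C3H/10T1/2 adipocytes 0 were called at 24 hrs, and at 48 hrs 0 were higher and 1 lower. Macrophage and endothelial markers gave 0 calls at any time in either line. The part of these markers in the Id results was not tested.

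**Figure D4:**
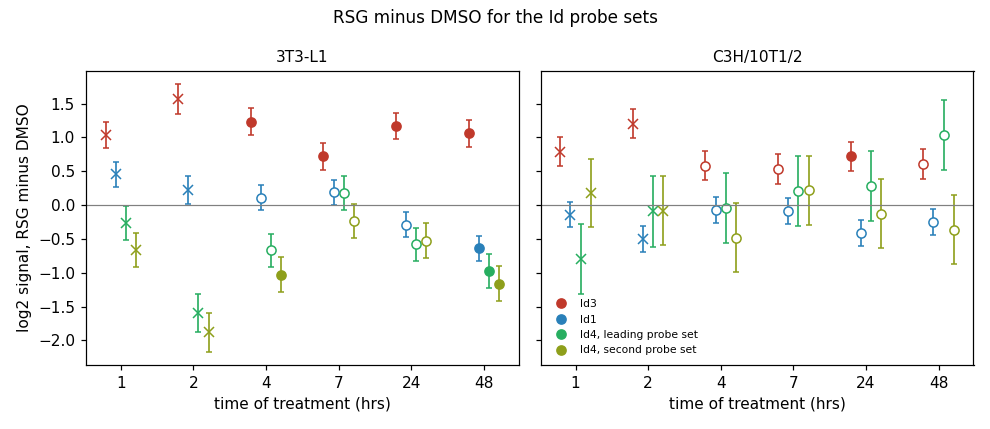
Log2 signal of RSG minus DMSO (points, with the SE of the fit) by time for Id3, Id1 and the leading and second Id4 probe sets in 3T3-L1 (left) and C3H/10T1/2 adipocytes (right). Crosses at 1 and 2 hrs are descriptions with no test; at later times filled circles have an adjusted p under 0.05 and open circles do not. Id3 stays between 0.72 and 1.57 in 3T3-L1, while Id4 returns to near 0 at 7 hrs.

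Differences between the lines in the response were tested directly. None of 20 comparisons (5 probe sets at 4 times) passed in limma, with 2 at an unadjusted p under 0.05, while of all 18274 probe sets 0.0% passed at 4 hrs and 0.0164% at 7 hrs, and 0.257% and 0.848% passed for the late harvests of 24 and 48 hrs. The response of Id3 in 3T3-L1 minus that in C3H/10T1/2 was 0.65 at 4 hrs (SE 0.30, adjusted p = 0.9999) and 0.19, 0.45 and 0.46 later, positive at each of the 4 times without passing. For the leading Id4 probe set at 48 hrs the fitted difference was -2.02 (SE 0.59, adjusted p = 0.0992), but it rests on C3H/10T1/2 DMSO arrays that were all under the presence level, and it was -1.46 (0.108) with signals floored at that level. It passed with the replicate block (0.00581, with 2.14% of all probe sets) and without C3H/10T1/2 DMSO replicate 2 (0.0499) or replicate 3 (0.0429) of 24 hrs. The second Id4 probe set gave -0.80 at 48 hrs (SE 0.56, adjusted p = 0.736).

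With DMSO, Id1 climbed over the time course in C3H/10T1/2 adipocytes. The early harvests gave 90.6, 67.2 and 85.2 (1 hr) and 117.8, 205.4 and 93.9 (2 hrs), and the next gave 177.1, 141.2 and 160.0 (4 hrs) and 272.4, 187.2 and 190.4 (7 hrs). The late ones gave 277.9, 243.8 and 311.3 (24 hrs) and 267.9, 252.8 and 235.6 (48 hrs). The climb was made for the most part by 7 hrs, and RSG arrays showed it too, with 61.9 to 79.3 at 1 hr and 192.8 to 223.8 at 48 hrs. Compared with 4 hrs, Id1 in DMSO was 0.43 higher on the log2 scale at 7 hrs (SE 0.19, adjusted p = 0.519), 0.80 at 24 hrs (adjusted p = 0.00602) and 0.67 at 48 hrs (adjusted p = 0.0232). The call at 48 hrs was lost without DMSO replicate 2 or 3 of 4 hrs or replicate 1 or 2 of 48 hrs (adjusted p of 0.0640 to 0.107). In 3T3-L1 adipocytes the same Id1 differences in DMSO were -0.01, 0.01 and 0.22, and none passed.

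Id3 in DMSO had its lowest mean at 4 hrs in 3T3-L1 adipocytes, 48.1 ± 16.0 (SD, n = 3), after 94.3 ± 3.67 at 1 hr, a time described with no test. It was higher at 48 hrs than at 4 hrs, with 84.4 ± 22.7 (log2 0.84, SE 0.20, adjusted p = 0.0176), but not than at 1 hr (-0.19). The call was lost without DMSO replicate 2 (0.0577) or 3 (0.212) of 4 hrs or replicate 1 of 48 hrs (0.197). The log2 differences of Id3 in DMSO from 4 hrs in C3H/10T1/2 adipocytes were 0.02 (7 hrs), -0.05 (24 hrs) and -0.28 (48 hrs), and none passed.

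Id4 in DMSO read lower after 4 hrs in C3H/10T1/2 adipocytes, at signals near the presence level. The leading probe set gave 18.4, 32.7 and 62.5 (4 hrs), 14.9, 11.1 and 37.1 (7 hrs), 12, 5.0 and 34.4 (24 hrs), and 15.3, 14.6 and 11.1 (48 hrs). The third replicate was the highest at each time before 48 hrs. The log2 difference from 4 hrs was -1.40 at 24 hrs (adjusted p = 0.0960, and 0.0140 with the replicate block). It was -1.31 at 48 hrs (0.117, and 0.0206 with the block), and neither passed in the main fit. All 48 hrs arrays were under the presence level, and the 4 hrs mean on the log2 scale was 1.68-fold above it. The difference at 24 hrs passed without replicate 1 of 4 hrs (0.0442) or replicate 3 of 24 hrs (0.00981). The second probe set had 21.5, 16.3 and 40.4 at 4 hrs and 6.5, 5.0 and 15.0 at 24 hrs, all under the presence level at 24 hrs. Its 4 hrs mean on the log2 scale was 1.22-fold above that level. The fitted difference passed (adjusted p = 0.0417, and 0.235 without replicate 3 of 4 hrs). Leaving out replicate 1 of 4 hrs (0.0718) or replicate 1 (0.129) or 2 (0.194) of 24 hrs also ended that call, as did flooring the signals at the presence level (-0.38, adjusted p = 0.391) or fitting only the groups compared (0.114). At 48 hrs the second probe set was under the presence level on every array too. Its difference from 4 hrs did not pass in the main fit (adjusted p = 0.0574, and 0.00635 with the block). In 3T3-L1 adipocytes the log2 differences of Id4 in DMSO from 4 hrs did not pass, with -0.51, 0.19 and -0.34 on the leading probe set. Counted over 7, 24 and 48 hrs, 1 member comparison passed in 3T3-L1, upward at 48 hrs, where 0.865% of all probe sets were higher and 0.993% lower (1.86% in either direction). At 24 hrs 0.255% of all were higher and 0.233% lower (0.488%), and at 7 hrs 0.0%. The count in C3H/10T1/2 adipocytes was 3 (6 with the block, under which 0.992% of all probe sets passed at 7 hrs, 13.1% at 24 hrs and 14.3% at 48 hrs). At 24 hrs 1 was higher (3.97% of all) and 1 lower (4.26%, and 8.23% in either direction), and at 48 hrs 1 was higher (3.91%) and 0 were lower (5.17%, and 9.08% in either direction), against 0.13%, 0.0992% and 0.229% of all at 7 hrs.

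The level in DMSO from 4 to 48 hrs separated the lines most for Id4. On the leading probe set the 12 arrays of 3T3-L1 adipocytes had a lowest, median and highest signal of 105.2, 159.9 and 261.7, against 5.0, 15.1 and 62.5 on the 12 arrays of C3H/10T1/2 adipocytes, with no overlap. Of these C3H/10T1/2 arrays 8 lay under the presence level on the leading probe set, 10 on the second and all 12 on the dimmest. The fitted log2 difference was 3.13 on the leading probe set (SE 0.21, limma adjusted p = 2.29e-19) and 2.99 on the second (adjusted p = 1.19e-19), and it was 2.65 and 2.15 with signals floored at the presence level. On the dimmest Id4 was at least 2.12-fold higher in 3T3-L1 (adjusted p = 5.58e-11). Id1 ranged over 250.8, 312.2 and 420.1 in 3T3-L1, against 141.2, 239.7 and 311.3 in C3H/10T1/2, with overlap (0.55, SE 0.10, adjusted p = 1.41e-06). Id3 had 32.2, 69.8 and 110.5 in 3T3-L1, against 45.3, 60.2 and 83.7 in C3H/10T1/2 (0.10, SE 0.11, adjusted p = 0.404), and turned to -0.24 (adjusted p = 0.0459) after quantile normalization. Thus 4 of 5 member probe sets were higher in 3T3-L1, where 51.0% of all probe sets were higher and 20.5% lower, so a share this high is near the background of a comparison in which most probe sets differed. The median over all probe sets was 0.31 and fell to 0.08 after quantile normalization, which changed the split of calls from 9317 higher and 3751 lower to 5802 higher and 5060 lower. The difference of the leading Id4 probe set was then 2.78 and that of Id1 0.52.

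Among the partners that Id proteins bind, Tcf4 (E2-2, a bHLH factor distinct from the Wnt effector of similar name) fell with RSG in both lines, while no probe set of Tcf3 (the source of E12 and E47) or Tcf12 (HEB) passed. On 1 of its probe sets Tcf4 had 46.9, 65.3 and 55.4 with RSG, against 108.1, 128.3 and 141.8 with DMSO at 24 hrs in 3T3-L1 adipocytes (log2 -1.18, SE 0.20, adjusted p = 0.000136). The same probe set in C3H/10T1/2 adipocytes had 110.7, 83.7 and 87.6 with RSG, against 188.1, 147.9 and 172.9 with DMSO at 48 hrs (-0.86, SE 0.19, adjusted p = 0.00478). The arrays of the groups were separate in both cases, and both calls were kept with each array left out. All RSG arrays lay below all DMSO arrays for 15.6% of all probe sets in the first case and 10.5% in the other. The same probe set at 24 hrs in C3H/10T1/2 lost its call in 4 of 24 refits with an array left out (adjusted p of up to 0.154). Another Tcf4 probe set did so at 48 hrs in that line, in 5 refits (up to 0.1055). Calls in 3T3-L1 at 7 hrs (up to 0.129) and on other probe sets at 24 hrs (up to 0.112 and 0.0518) were lost likewise. In 3T3-L1 adipocytes 0 of 10 E protein probe sets were lower at 4 hrs, 1 was at 7 hrs, 5 were at 24 hrs and 4 were at 48 hrs, and 0 were higher, with medians of -0.15, -0.46, -0.61 and -0.46 against -0.02, -0.05, -0.01 and -0.03 for all probe sets. Of all probe sets in that line, 0.172%, 0.821%, 6.97% and 8.09% were lower at these times. Of 9 tested in C3H/10T1/2 adipocytes, 0 were lower at 4 or 7 hrs, 1 was at 24 hrs and 2 were at 48 hrs (1, then 2, 3 and 3 in the blocked fit), and 0 were higher, with medians of -0.25, -0.43, -0.46 and -0.40 against -0.04, -0.07, -0.07 and -0.01. Of all probe sets there, 0.229%, 1.2%, 4.07% and 2.62% were lower, and 0.564%, 2.98%, 7.27% and 4.87% in the blocked fit. All calls of the main fit in both lines were of Tcf4, so several of these probe sets stand for 1 gene. At 24 hrs in 3T3-L1 the brighter Tcf3 probe set had 122.1, 108.9 and 102.4 with RSG, against 130.5, 139.7 and 125.9 with DMSO. The difference did not pass (-0.25, adjusted p = 0.435). The RSG arrays lay below the DMSO arrays without overlap, as they did for 15.6% of all probe sets. Tcf12 on 1 of its probe sets had 180.0, 214.3 and 177.1 with RSG, against 141.1, 263.2 and 173.7 with DMSO at that time (0.03, adjusted p = 0.967).

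**Figure D5:**
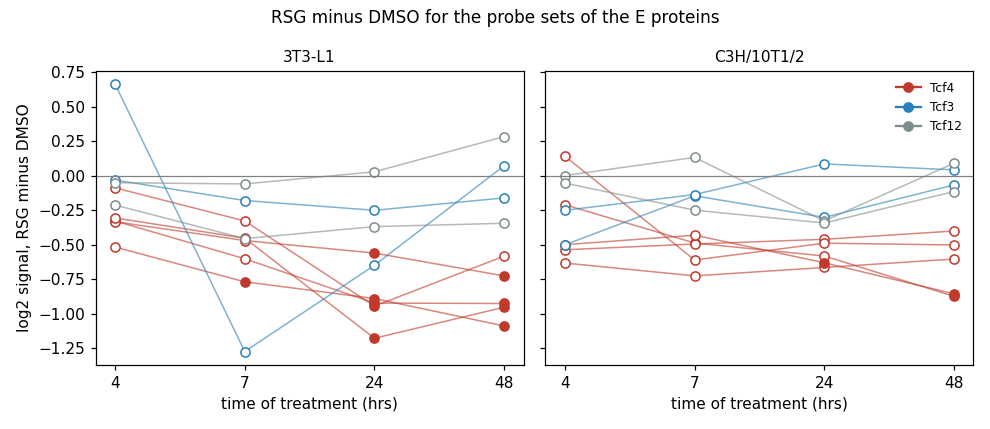
Log2 signal of RSG minus DMSO (points, joined per probe set) by time from 4 hrs for the probe sets of Tcf4, Tcf3 and Tcf12 in 3T3-L1 (left) and C3H/10T1/2 adipocytes (right). Filled points have an adjusted p under 0.05, and 1 Tcf4 probe set under the presence level in all RSG arrays of 3T3-L1 is left out. The filled points all belong to Tcf4, 5 of them at 24 hrs in 3T3-L1.

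Over the E proteins and the other 8 lists of the pathway, 91 probe sets were tested in 3T3-L1 adipocytes. At 4 hrs 1 was higher and 0 were lower (1.1% and 0.0%, where 0.544% and 0.172% of all probe sets were). At 7 hrs 1 was higher and 1 lower (1.1% each, with 1.22% and 0.821% of all). At 24 hrs 3 were higher and 12 lower, which is 3.3% and 13.2% of the lists, where 4.79% and 6.97% of all probe sets were. At 48 hrs 4 were higher and 11 lower, or 4.4% and 12.1%, where 6.2% and 8.09% of all were. Of 84 in C3H/10T1/2 adipocytes, 1 was higher and 0 were lower at 4 hrs (1.19% and 0.0%, with 0.533% and 0.229% of all). At 7 hrs 0 were higher and 1 lower (0.0% and 1.19%, with 1.65% and 1.2% of all). At 24 hrs 0 were higher and 3 lower (3.57%, with 4.07% of all), and at 48 hrs 2 were higher and 5 lower (2.38% and 5.95%, with 2.79% and 2.62% of all). The blocked fit gave 2 higher and 12 lower at 24 hrs and 4 and 9 at 48 hrs in this line, while 5.36% and 7.27% of all probe sets were higher and lower at 24 hrs and 4.56% and 4.87% at 48 hrs. Counted as genes that passed without overlap at any of the 4 times in either line, the lists had 18 of 61 (29.5%) and all genes 2808 of 10557 (26.6%), so the share of the lists as a whole was near the background. Of the 32 calls of the genes named here in 3T3-L1 adipocytes, 20 were kept with each array left out, and 1 of 12 in C3H/10T1/2 adipocytes, and calls that were not kept are marked as such below.

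Other bHLH factors moved in both directions, with 4 of 10 measured genes called at some time, where 26.6% of all genes were. Twist1, a repressor that also dimerizes with E proteins, had 95.3, 92.9 and 88.8 with RSG, against 202.8, 165.2 and 163.5 with DMSO at 48 hrs in 3T3-L1 adipocytes (log2 -0.93, adjusted p = 0.00679). Bhlhe40, a repressor of the circadian system, had 264.6, 398.2 and 395.6 with RSG, against 95.2, 196.4 and 241.9 with DMSO (1.07, adjusted p = 0.00122). Neither pair of groups overlapped. All RSG arrays lay below all DMSO arrays at 48 hrs for 14.4% of all probe sets, and above them for 10.8%. Twist2 was higher with RSG in C3H/10T1/2 adipocytes at 48 hrs (0.79, adjusted p = 0.0234, and up to 0.121 with an array left out).

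In the BMP pathway, 2 of 8 genes listed as ligands (1 of the 2 being Bmp1) were called at some time in either line. So were 1 of 7 receptors, 1 of 6 Smads, 3 of 8 antagonists and 2 of 7 other targets. By the same count 26.6% of all genes were called, so no response of the pathway is read from these counts. The type I receptor Acvr1 had, on 1 of its probe sets, 46.3, 54.4 and 62.4 with RSG, against 101.4, 135.4 and 156.0 with DMSO at 24 hrs in 3T3-L1 adipocytes (log2 -1.26, adjusted p = 0.000982). Smad6, an inhibitory Smad and itself a BMP target, had 201.7, 237.3 and 250.5 with RSG, against 146.0, 126.1 and 148.1 with DMSO at 48 hrs (0.71, adjusted p = 0.000433). The antagonist follistatin (Fst) had 102.7, 151.4 and 115.8 with RSG, against 278.0, 269.7 and 321.8 with DMSO at 48 hrs (-1.25, adjusted p = 2.56e-05). The receptor, on that probe set alone in 3T3-L1, and the antagonist fell and the inhibitory Smad rose, each without overlap. Of all probe sets in that line, 15.6% at 24 hrs and 14.4% at 48 hrs were lower without overlap, and 10.8% higher at 48 hrs. Another Acvr1 probe set was lower in C3H/10T1/2 adipocytes at 24 and 48 hrs (-0.73 and -0.76), with adjusted p of up to 0.165 and 0.16 with an array left out. Smad6 was also higher at 24 hrs in 3T3-L1 (0.443) and at 4 hrs in C3H/10T1/2 (0.555), with adjusted p of up to 0.133 and 0.205 with an array left out. Follistatin-like 1 (Fstl1) fell in 3T3-L1 adipocytes on 1 of its probe sets at 24 hrs (-0.59) and on each of them at 48 hrs (-1.09 and -1.41). Tgif1, a corepressor of Smads, fell there at 24 hrs (-0.90). Among the ligands, Gdf5 was higher and Bmp1 lower in 3T3-L1 adipocytes, with calls that were lost with single arrays left out, and Bmp1 encodes a procollagen proteinase and not a BMP. Nbl1, an antagonist, and Junb, an AP-1 subunit, were lower in C3H/10T1/2 adipocytes (-1.07 at 48 hrs and -0.90 at 7 hrs), with adjusted p of up to 0.186 and 0.101 with an array left out.

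Among genes that control Id transcripts and proteins, 3 of 7 were called, where 26.6% of all genes were. Egr1, an immediate early zinc finger factor known from mouse lymphocytes to raise Id3, had 895.6, 640.2 and 713.2 with RSG, against 287.8, 353.6 and 356.1 with DMSO at 4 hrs in 3T3-L1 adipocytes (log2 1.17, SE 0.17, adjusted p = 9.78e-05). At 7 hrs Egr1 was higher too (0.62, adjusted p = 0.0432), a call lost in 7 of 24 refits with an array left out. At 24 hrs it had 319.7, 295.5 and 232.3 with RSG, against 431.3, 446.8 and 584.3 with DMSO (-0.79, SE 0.17, adjusted p = 0.00138), so it was higher early and lower late. The part of Egr1 in the Id3 results was not tested. In C3H/10T1/2 adipocytes Egr1 was lower by log2 -1.06 at 24 hrs and -1.17 at 48 hrs (adjusted p = 0.0218 and 0.0129, and up to 0.0991 and 0.112 with an array left out). Atf3, a stress-induced repressor, was at 20.1, 36 and 33.4 with RSG, against 7.1, 8.1 and 9.1 with DMSO, all under the presence level, in 3T3-L1 at 48 hrs (adjusted p = 0.0408, and up to 0.132 with an array left out), and Cops5, a COP9 signalosome subunit, differed by -0.39 at that time (adjusted p = 0.0463), a call lost in 14 of 24 refits with an array left out. Of the cell cycle inhibitors, 1 of 5 was called, again beside 26.6% of all genes. Cdkn1a (p21), which E proteins are known to activate, had 460.1, 371.9 and 464.1 with RSG, against 255.7, 244.9 and 257.6 with DMSO at 24 hrs in 3T3-L1 adipocytes (0.77, SE 0.18, adjusted p = 0.00444).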

How the data were processed

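Total RNA of 71 samples was hybridized to Affymetrix mouse genome arrays. The authors deposited signal intensities from MAS 5.0, scaled to a common target (trimmed means of 150.05 to 150.07). No file gave single probes, and the number of arrays limits the precision. Of 22690 probe sets, 64 controls were set aside. By the supplied annotation 20380 had 1 gene, 691 had several and 1555 had none. The 132 zeros became 0.1 before log2. Probe sets with a group mean of at least 19.9 in a line were tested with lmFit and eBayes of limma 3.58.1 (R 4.3.3), using a mean-variance trend and a mean for every group, in each line (35 and 36 arrays) and jointly. P-values were adjusted by Benjamini and Hochberg over all probe sets tested and called under 0.05. The methods' own analysis of variance was an alternative. A group under 19.9 on every array gave a bound set against 19.9, which carries no sampling error. The fit was tested on simulated data.

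Members and lists were chosen with earlier results of these data known. All members were named, with the probe set of highest mean signal leading, and up to 3 called, separate genes a list, plus the E proteins. With group means removed, same-numbered RSG and DMSO arrays correlated over 0.1 in 18 of 18 pairs in C3H/10T1/2 adipocytes (0.178 to 0.404). These were taken as paired. In 3T3-L1 adipocytes 16 of 17 pairs did so (0.03 to 0.348), a range that overlaps the other, and these were not taken as paired. The main fit used no pairing in either line. Replicates came from separate batches of cells.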

Additional observations from a re-analysis of the deposited data

How the results depend on the processing

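Precision is limited by 2 or 3 arrays a group, and for Id2 and, in C3H/10T1/2 adipocytes, Id4 by signals near the bacterial controls. Over 4 times, 9 Id calls in 3T3-L1 adipocytes became 3 with only the groups compared and 0 with the methods' test after Benjamini-Hochberg (8 at its own threshold), 6 to 9 with arrays left out, and 9 with the replicate block, where the numbers were only shared. In C3H/10T1/2 adipocytes the count of Id calls was 1, against 4 with the replicate block and 3 with the methods' test (0 adjusted). It was 0 with no filter or only the groups compared, and 0 to 2 with single arrays left out. The 3 calls of the methods' test were Id3 at 7 hrs (unadjusted p = 0.0353), Id1 at 24 hrs (0.0298) and the leading Id4 probe set at 48 hrs (0.00785). Id3 at 24 hrs, the call of the main fit, was not among them (0.0677). Calls over time in DMSO were 1 in 3T3-L1 (at 7, 24 and 48 hrs, 0 with 1 hr as reference or only the groups compared, 0 to 1 with arrays left out) and 3 in C3H/10T1/2 (6 with the block, 1 without replicate 3 of 4 hrs and 5 without replicate 3 of 24 hrs). Pathway list calls were 33 in 3T3-L1 (62 with the methods' test, 0 adjusted, 21 with only the groups compared) and 12 in C3H/10T1/2 (54, 0 adjusted, 38 with the block, 7 to 15 with arrays left out, the lowest without DMSO replicate 1 of 48 hrs). Differences between lines in the response gave 0 calls, and 1 with quantile normalization, with the block, and in 0 to 1 with arrays left out. The causes were not tested. For the joint fits, no filter and arrays left out, and for DMSO levels also the trend and block, were chosen after seeing the data, as were the alternatives for the lists. Among single results, 1587 kept direction and side of the threshold under their alternatives, 228 lost a call, 16 gained one and 41 changed sign.

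The sign changes were of uncalled values, except Id3 in DMSO at 48 against 4 hrs in 3T3-L1 (-0.19 against 1 hr). With 1 hr as reference, 7 hrs gave 0.11 for Id1, -0.44 for Id3 and 0.17 for Id4 in 3T3-L1 and -0.18 for Id3 in C3H/10T1/2, 24 hrs -0.45 for Id3 and 48 hrs 0.33 for Id4 in 3T3-L1. Quantile normalization gave 0.021 for Id4 with RSG at 4 hrs in C3H/10T1/2 and -0.24 for Id3 between lines. With signals floored at the presence level, Id4 in C3H/10T1/2 gave -0.017 at 7 hrs and -0.26 at 24 hrs, and 0.20 between lines at 7 hrs. With arrays left out in turn, Id1 in DMSO in 3T3-L1 ranged over -0.16 to 0.13 at 7 hrs and -0.05 to 0.063 at 24 hrs, and Id3 in C3H/10T1/2 over -0.11 to 0.093 and -0.27 to 0.13. With RSG, the dimmest Id4 probe set at 24 hrs in 3T3-L1 ranged over -0.38 to 0.069, Id1 in C3H/10T1/2 over -0.16 to 0.013 at 4 hrs and -0.18 to 0.093 at 7 hrs. The leading Id4 probe set in C3H/10T1/2 ranged over -0.48 to 0.40, -0.17 to 0.72 and -0.39 to 1.00 at 4, 7 and 24 hrs, the second over -0.087 to 0.48 at 7 and -0.52 to 0.34 at 24 hrs, and the difference between lines at 7 hrs over -0.54 to 0.35.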

Other observations

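Over the 12 group means of a line, the genes whose log2 signals followed each leading member most closely in both lines were named from 14589 probe sets with 1 gene tested in both. These correlations are descriptions, the points share arrays and treatment with the member, and no p is given. Those for Id3 were Col7a1, a collagen of anchoring fibrils (Pearson r 0.79 over 3T3-L1 groups and 0.82 over C3H/10T1/2 groups), Irs2, an adaptor of the insulin receptor (0.79 and 0.82), and Pdk4, the kinase that inactivates pyruvate dehydrogenase (0.79 and 0.78). Those for Id1 were Phldb1 (0.83 and 0.85), Tmem159 (0.79 and 0.80) and Guk1, guanylate kinase (0.78 and 0.87). Those for Id4 were Cdc42 (0.81 and 0.81), the ubiquitin-conjugating enzyme Ube2j1 (0.70 and 0.77) and the mitochondrial carrier Slc25a36 (0.79 and 0.69).

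Among the members themselves, the group means of Id3 and Id4 ran opposite to each other in 3T3-L1 adipocytes (r -0.78 over 12 groups) and had no such relation in C3H/10T1/2 adipocytes (0.05), where Id4 lay near the presence level. The choice of the members by their changes at 1 and 2 hrs contributes to that value. Id1 and Id3 gave -0.02 in 3T3-L1 adipocytes, against -0.46 in C3H/10T1/2 adipocytes, and for Id1 and Id4 the values were 0.01 and -0.56.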
